A study of Mus musculus with 6 samples.

Results

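Keratins are the intermediate filament proteins of epithelial cells. Each filament is built from pairs of an acidic type I and a basic type II keratin, and each kind of epithelium uses its own pairs: Krt8 with Krt18 in simple epithelia, Krt5 with Krt14 in the basal layer of stratified epithelia, Krt1 with Krt10 above that layer, and a set of hair keratins in the follicle. In the thymus, Krt8 and Krt18 are classical markers of cortical epithelium and Krt5 and Krt14 of medullary epithelium, while keratins of differentiated and hair-forming epithelia are known from maturing medullary cells.

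All genes with a symbol of Krt followed by a number were followed here, without the keratin-associated proteins. The array named 53 of them among 20866 genes, through the accession of each probe, and Krt83 was not analysed here. The brightest of a gene's probes, by its mean over 6 arrays, stood for the gene; 11 keratins had several probes, 64 probes in all. By textbook use the keratins were put into 5 simple, 3 basal, 11 suprabasal, 4 activation (wound-response), 14 hair shaft and 9 hair root sheath genes, with 7 left unclassified. On mouse chromosome 11 lie 27 of them and on chromosome 15 the other 26.

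The study measured 3 sorted populations of thymic cells from mice lacking TNFalpha and RelA (DKO), against mice lacking TNFalpha alone (TNF KO), all C57BL/6 and 1.5 to 2 weeks old. RelA is a subunit of the transcription factor NF-kB, so that the comparison shows thymic cells without it on a background in which both genotypes lack TNFalpha. The populations were CD4+CD25hi thymocytes, which the study takes as thymic regulatory T cells, from 5 mice per genotype; CD45-EpCAM+ thymic epithelial cells from 10 thymi; and CD45+EpCAM- cells, a stromal fraction that holds macrophages and dendritic cells, from 10 thymi. Cells were pooled, and each genotype and population was hybridised to 1 one-colour Agilent array.

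Levels are log2 signal relative to the 75th percentile of the same array, so that 0 is the signal at that percentile and 1 unit is 2-fold. Signal at that percentile was 108 in DKO and 370 in TNF KO CD45-EpCAM+ cells, and between 272 and 675 on the other 4 arrays. Of all probes, 47.3% were well above background on the DKO and 66.2% on the TNF KO array of CD45-EpCAM+ cells, against 55.1% to 65.0% elsewhere. The DKO array of the epithelial cells was therefore the dimmest of the 6, which limits what could be measured on it. Rela read 1.81 in DKO and 3.84 in TNF KO epithelial cells, and was lower in DKO by 1.86 in CD4+CD25hi and 0.74 in CD45+EpCAM- cells; where its probe lies relative to the deleted part is not given in the sources used here. Tnf, which both genotypes lack by their labels, gave signal above background in thymocytes (-0.78 in DKO and -0.64 in TNF KO) and CD45+EpCAM- cells (-0.64 in DKO and -0.57 in TNF KO), and in the epithelial cells was above background in TNF KO alone (-2.71 in DKO and -1.49 in TNF KO). The place of its probe is not given either. All 9 epithelial markers, among them Epcam, Cdh1 and Foxn1, were well above background on both CD45-EpCAM+ arrays. All 11 T cell markers were so on both CD45+EpCAM- arrays, with Cd3e at 5.77 in DKO and 5.67 in TNF KO. Their linear levels there summed to 322 in DKO and 324 in TNF KO, against 395 and 398 in thymocytes. The CD45+EpCAM- arrays thus held much T cell signal and do not stand for macrophages and dendritic cells alone.

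Because RelA binds DNA directly, keratin promoters were read from RefSeq (build GRCm38.p6, 250 bases before to 50 after the annotated start); 36 keratins had one, 37 promoters in all. The NF-kB consensus, searched on both strands, was found in 4 of these 37 (10.8%), those of Krt14, Krt18, Krt23 and Krt79, against 8.46% of all 32851 promoters. The core promoter motif TATAAA, searched the same way, was in 19 (51.4%), against 13.6% of all promoters, and TGANTCA, the AP-1 motif, in 2 (5.41%), both of Krt13, against 7.81%. Some of these promoters are shown, each 5′ to 3′ on the gene's own strand, with matches in capitals and positions counted from the annotated start (-1 is the base before it). Krt20 (chr11:99438104-99438403, minus strand) and Krt76 (chr15:101892871-101893170, minus strand) were among the keratins with the largest measured genotype difference and carry TATAAA from position -29. Krt9 and Krt78, also among the largest, had a promoter here without TATAAA. Krt23 (chr11:99493071-99493370, minus strand; match from -53), Krt14 (chr11:100205981-100206280, minus strand; from -107) and Krt18 (chr15:102027966-102028265, plus strand; from -47, on both strands) carry the NF-kB match.
Krt20: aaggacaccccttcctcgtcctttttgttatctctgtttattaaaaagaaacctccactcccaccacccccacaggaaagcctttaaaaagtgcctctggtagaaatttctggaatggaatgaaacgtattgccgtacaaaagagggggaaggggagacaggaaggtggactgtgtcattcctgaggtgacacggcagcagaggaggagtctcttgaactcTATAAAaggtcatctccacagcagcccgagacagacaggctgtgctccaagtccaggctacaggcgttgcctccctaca
Krt76: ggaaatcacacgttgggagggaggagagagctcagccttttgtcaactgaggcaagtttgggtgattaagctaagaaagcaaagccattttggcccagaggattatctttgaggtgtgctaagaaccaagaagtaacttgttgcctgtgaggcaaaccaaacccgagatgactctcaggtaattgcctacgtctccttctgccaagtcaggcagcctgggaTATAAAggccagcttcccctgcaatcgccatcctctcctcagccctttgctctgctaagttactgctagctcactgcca
Krt23: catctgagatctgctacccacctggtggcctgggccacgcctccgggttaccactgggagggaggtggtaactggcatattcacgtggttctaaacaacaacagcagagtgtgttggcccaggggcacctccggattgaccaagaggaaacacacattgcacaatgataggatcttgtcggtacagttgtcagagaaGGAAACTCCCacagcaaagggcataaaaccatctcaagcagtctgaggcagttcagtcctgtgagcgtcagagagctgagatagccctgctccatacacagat
Krt14: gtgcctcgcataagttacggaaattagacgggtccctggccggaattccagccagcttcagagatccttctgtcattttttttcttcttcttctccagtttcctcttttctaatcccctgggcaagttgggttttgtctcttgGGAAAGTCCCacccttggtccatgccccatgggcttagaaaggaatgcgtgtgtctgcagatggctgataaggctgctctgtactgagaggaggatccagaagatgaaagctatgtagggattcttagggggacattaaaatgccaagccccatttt
Krt18: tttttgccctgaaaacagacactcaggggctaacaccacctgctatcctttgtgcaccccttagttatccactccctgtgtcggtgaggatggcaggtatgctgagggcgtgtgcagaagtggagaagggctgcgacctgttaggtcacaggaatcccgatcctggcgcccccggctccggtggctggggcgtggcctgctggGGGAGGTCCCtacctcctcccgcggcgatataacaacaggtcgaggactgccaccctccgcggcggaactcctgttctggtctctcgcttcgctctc
A match describes these letters only. Of the 12 keratins with a promoter here and a signal at least 2-fold lower in DKO epithelial cells, 2 had the NF-kB match, 7 had TATAAA and 0 had TGANTCA. Of the 9 measured on both arrays that differed by less than 2-fold, 2, 4 and 1 had them. The NF-kB match stood in Krt23 and Krt79, both lower in DKO, and in Krt14 and Krt18, which were within 2-fold.

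**Figure D1:**
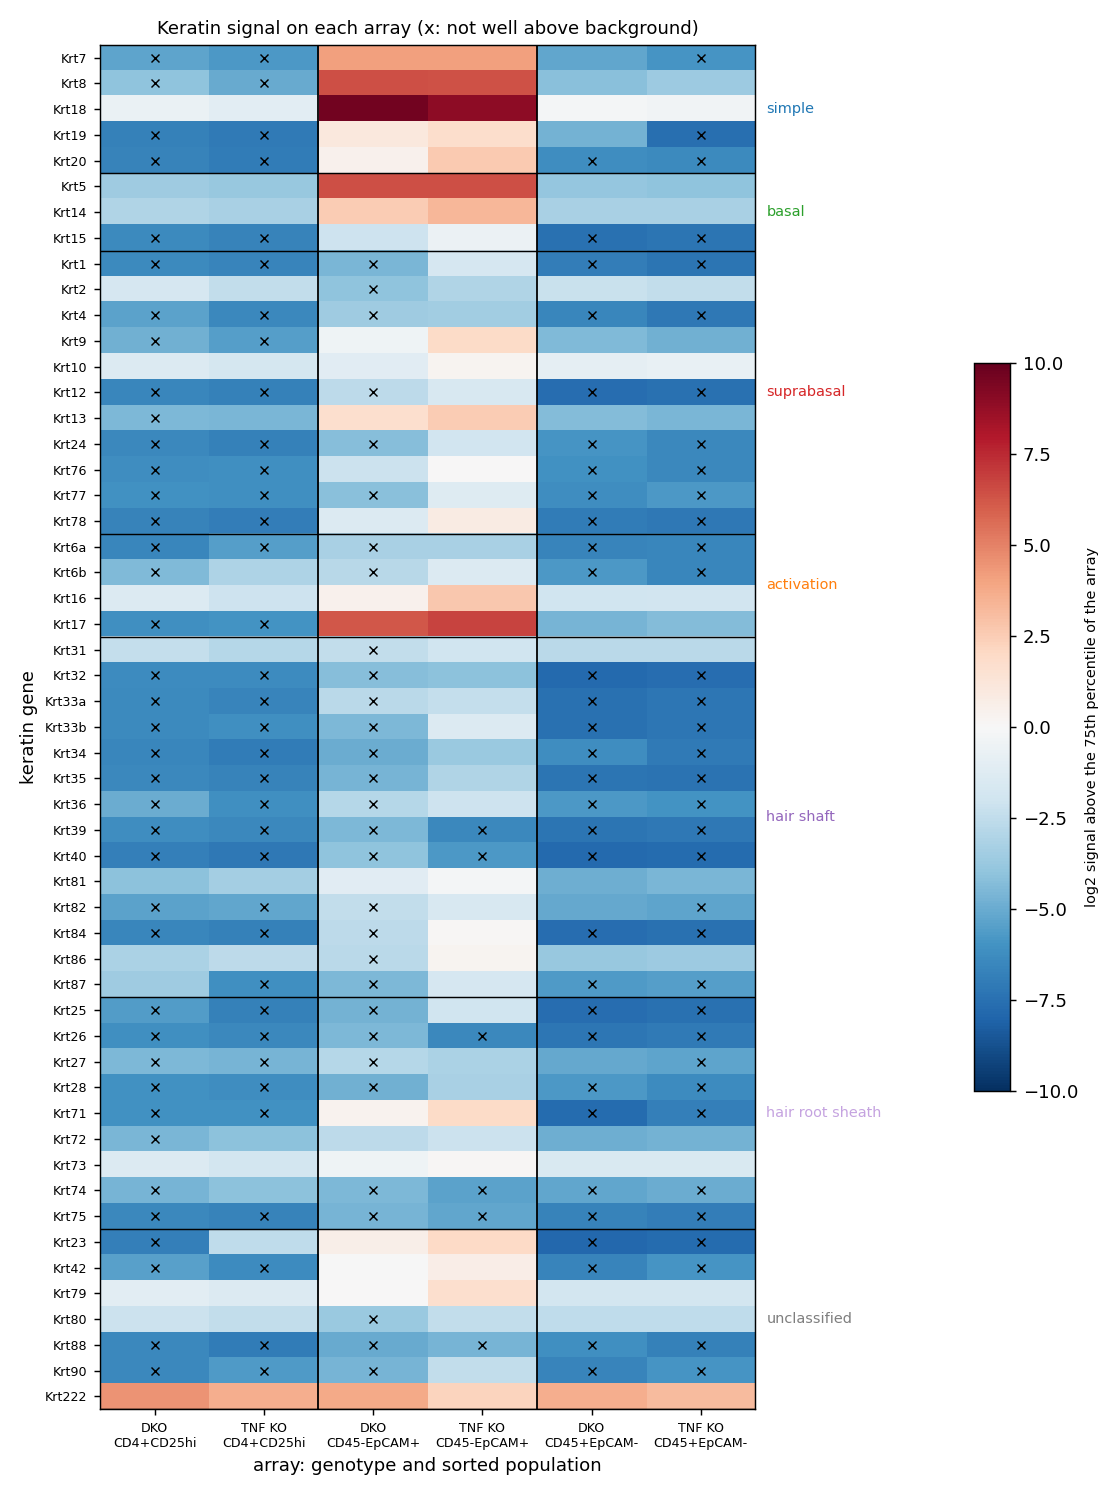
Keratin signal on each of the 6 arrays, as log2 signal above the array's 75th percentile (colour), by genotype and population (columns) and keratin group (rows); a cross marks a probe not well above background. The CD45-EpCAM+ columns hold the brightest values, with 47 keratins above background in TNF KO and 23 in DKO (88.7% and 43.4%, against 75.6% and 57.0% of all genes).

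The first question was where keratins were expressed. In CD45-EpCAM+ cells 23 keratins in DKO and 47 in TNF KO were well above background (43.4% and 88.7% of the 53, against 57.0% and 75.6% of all genes). In CD4+CD25hi thymocytes there were 14 in DKO and 18 in TNF KO (26.4% and 34.0%, against 59.9% and 61.0% of all genes). In CD45+EpCAM- cells there were 22 in DKO and 18 in TNF KO (41.5% and 34.0%, against 68.8% and 66.6% of all genes). Among the DKO arrays 7 keratins were above background in the epithelial cells alone and 9 in all 3 populations, against 27 and 15 among the TNF KO arrays. The same counts were not made over all genes, and the DKO epithelial array was the dimmest. These counts therefore cannot be read as particular to keratins. On no array were Krt26, Krt39, Krt40, Krt75 and Krt88 above background, and of the 17 that were so on a single array, 16 were on that of the TNF KO epithelial cells.

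A limma fit with terms for population and genotype compared the populations. It took in the 15144 genes that at least 2 arrays measured above background, and a call needed an adjusted p of 0.05 and 2-fold. Of the 53 keratins 31 could be fitted, and 6 of these entered through the epithelial arrays alone (Krt15, Krt20, Krt42, Krt71, Krt76 and Krt78), so that they had to differ. Above CD4+CD25hi thymocytes 23 keratins were higher in CD45-EpCAM+ cells, where 24.4% of all genes tested were called higher, and 0 were lower, where 16.5% were. Above CD45+EpCAM- cells 24 were higher (23.2% of all genes) and 0 lower (17.5%). Both arrays of a population are the 2 genotypes, so these p-values rest on how far the genotype difference varied between populations and do not measure the spread between pools; each population also had a slide of its own, and slide and population cannot be told apart. At an unadjusted p of 0.05 in limma, 1 keratin, Krt222, was at least 2-fold lower than in thymocytes and 0 were lower than in CD45+EpCAM- cells; no other tool was run.

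The simple keratins Krt8 and Krt18 were among the brightest in the epithelial cells. Krt8 stood at 6.44 in DKO and 6.38 in TNF KO CD45-EpCAM+ cells, at -4.22 in DKO and -3.65 in TNF KO CD45+EpCAM- cells, and at -4.00 in DKO and -5.02 in TNF KO CD4+CD25hi thymocytes. It was not above background in the thymocytes, so its excess there is a bound: the brighter mean over the higher of the dim signal and the lowest signal above background on those arrays, at least 1817-fold (adjusted p = 0.00127, limma). Over CD45+EpCAM- cells its excess was 10.34 ± 0.44 (log2, SE; adjusted p = 0.0015, limma). Krt18 stood at 9.61 in DKO and 8.97 in TNF KO epithelial cells, at -0.21 in DKO and -0.36 in TNF KO CD45+EpCAM- cells, and at -0.66 in DKO and -1.03 in TNF KO thymocytes. All 6 arrays measured it, and it was 10.14 ± 0.18 (log2, SE) above thymocytes (adjusted p = 0.00109, limma).

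Krt7, Krt19 and Krt20, keratins of ducts, glands and gut-type epithelia, were likewise epithelial here. Krt7 stood at 4.08 in DKO and 4.10 in TNF KO epithelial cells, against -5.89 to -5.19 on the other 4 arrays, and was at least 435-fold above thymocytes (adjusted p = 0.00109, limma). Krt19, which lacks the tail domain of other keratins, stood at 1.05 in DKO and 1.79 in TNF KO epithelial cells, against -7.55 to -4.71 elsewhere. Krt20, known from intestinal and urothelial surface cells, stood at 0.43 in DKO and 2.58 in TNF KO epithelial cells, against -6.98 to -6.24 on the other arrays, all not above background.

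The basal pair was as clearly epithelial. Krt5 stood at 6.43 in DKO and 6.44 in TNF KO epithelial cells, at -3.86 in DKO and -4.03 in TNF KO CD45+EpCAM- cells, and at -3.56 in DKO and -3.78 in TNF KO thymocytes, a difference of 10.10 ± 0.14 over thymocytes (log2, SE; adjusted p = 0.00109, limma). Krt14 stood at 2.51 in DKO and 3.30 in TNF KO epithelial cells, at -3.24 in DKO and -3.21 in TNF KO CD45+EpCAM- cells, and at -2.99 in DKO and -3.27 in TNF KO thymocytes (6.03 ± 0.31 over thymocytes, log2, SE; adjusted p = 0.00176, limma). Krt17, a wound-response keratin, stood at 6.17 in DKO and 6.73 in TNF KO epithelial cells, at -4.61 in DKO and -4.30 in TNF KO CD45+EpCAM- cells, and at -6.15 in DKO and -5.98 in TNF KO thymocytes, at which it was not above background. Its excess over thymocytes was at least 2239-fold (adjusted p = 0.00109, limma).

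Between CD45+EpCAM- cells and CD4+CD25hi thymocytes, only Krt17 was called among the 31: it was 1.61 ± 0.16 higher in CD45+EpCAM- cells (log2, SE; adjusted p = 0.0236, limma), at least 1.17-fold since thymocytes were at background, where 6.35% of all genes were called higher and 3.92% lower. That call was lost when any 1 of the 4 arrays was left out, with no filter on dim genes, and under normexp, another background correction, where the Krt17 difference was -0.46. Not called in the epithelial cells against either population were Krt2, Krt10, Krt31, Krt80, Krt86, Krt87 and Krt222. Krt10 and Krt2 gave signal in all populations with their brightest probe, but their other probe was not above background outside CD45-EpCAM+ cells, so that the probes disagree. The brightest Krt222 probe read 3.80 in DKO and 2.19 in TNF KO epithelial cells and 3.14 to 4.47 elsewhere, while its other probe was at background on all 6 arrays.

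The main question was how keratins differed between DKO and TNF KO epithelial cells. The suprabasal, activation and hair keratins measured on both arrays all read lower in DKO. Of the brightest simple and basal keratins, Krt5, Krt7 and Krt8 differed by -0.01, -0.02 and 0.06, while Krt18 differed by 0.64 and Krt14 by -0.79. There is 1 array of each genotype, so no test of them was possible. Where the DKO probe was not above background, the difference is a bound formed as above, written "at least". It is a bound under this rule only and not a strict limit. The lowest signal above background on the DKO array was -2.82, while some probes not above background read higher, such as Krt31 at -2.45. Under normexp, another background correction, some differences were smaller than their bound, such as Krt86 at -1.25 and Krt77 at -0.18. A further 8 keratins allowed no fold because the TNF KO signal was too low. Bounds could only show lower DKO signal, since no keratin was above background in DKO alone and any other outcome gave no fold. Of 39 keratins with a value (23 measured on both arrays, 16 bounds), 18 were at least 2-fold lower in DKO (46.2%), against 9.3% of 13208 genes. Only Krt222 was at least 2-fold higher, against 5.1% of genes. Fewer cells of a type in the sort and less keratin RNA per cell cannot be told apart.

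The median difference of the 39 keratins was -0.89, against 0.03 over all genes. Among the 23 measured on both arrays it was -0.82, against 0.09, and 10 of the 23 (43.5%) were at least 2-fold lower, against 6.36% of 11847 genes, and 1 was higher, against 5.28%. A further count showed 24 keratins above background in TNF KO but not in DKO epithelial cells (45.3% of 53), against 18.8% of genes. As the DKO array was dim, keratins were also set beside genes of like signal on the TNF KO array. Between -2 and 0, 7 of 11 keratins were at least 2-fold lower (15.2% of 4377 genes), between 0 and 3, 11 of 16 (8.67% of 5353 genes), and above 3, 0 of 6 (6.45% of 1505 genes). The 6 brightest were Krt5, Krt7, Krt8, Krt14, Krt17 and Krt18. A count of 0 of 6 is near the 6.45% share of all genes and does not set these 6 apart. Under normexp Krt14 (-1.11) and Krt17 (-1.03) were at least 2-fold lower. Krt5, Krt7 and Krt8 then stood at -0.48, -0.47 and -0.50, and Krt18 at 0.44. Where genes had several probes above background, the probes' differences in the epithelial cells varied by 0.32 (SD within a gene), which measures probes and not pools.

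**Figure D2:**
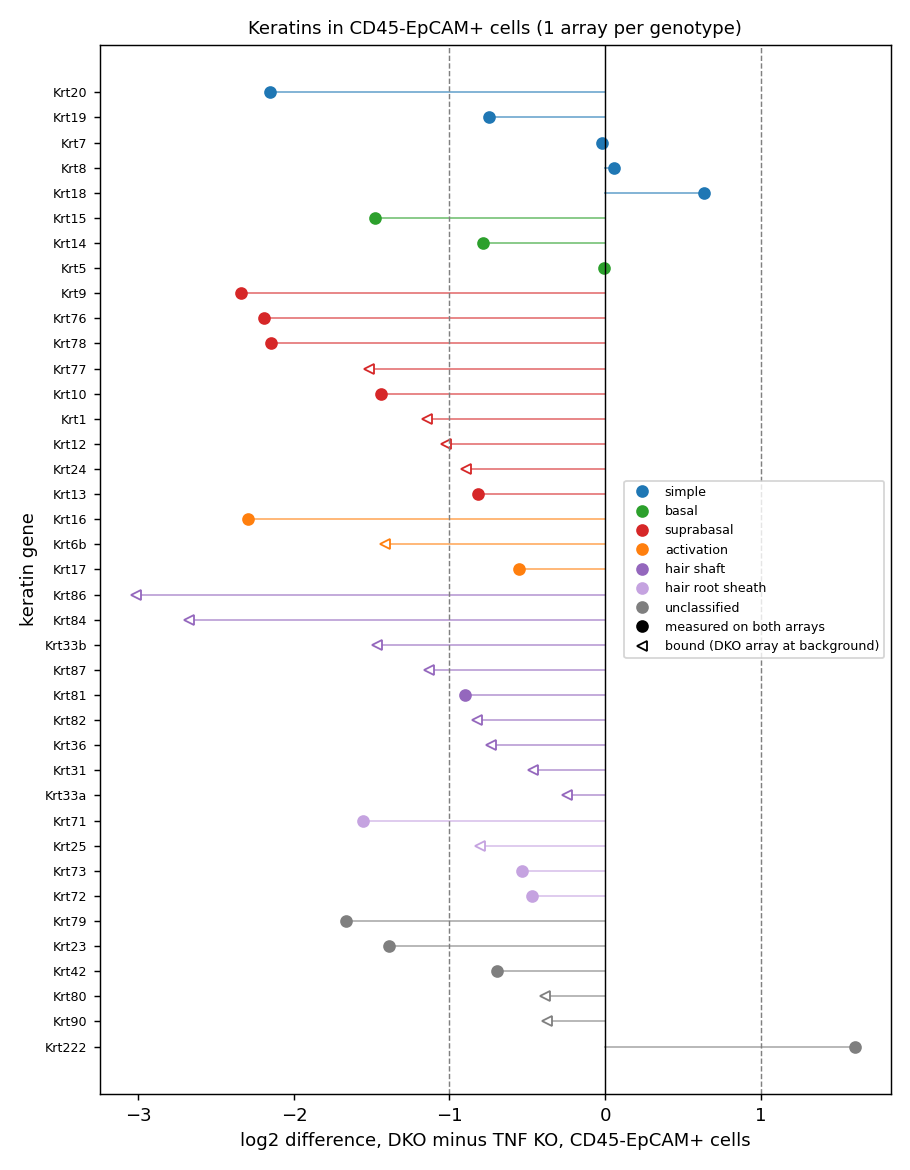
Difference between DKO and TNF KO CD45-EpCAM+ cells for the 39 keratins with a value (x axis, log2, DKO minus TNF KO), by group; filled points were measured on both arrays, open triangles are bounds, and dashed lines mark 2-fold. Suprabasal keratins lie between -2.34 and -0.82, while Krt7, Krt8 and Krt5 lie at -0.02, 0.06 and -0.01.

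The 5 simple keratins split. Their median difference was -0.02, and 1 of 5 was at least 2-fold lower. Krt8 differed by 0.06 and its partner Krt18 by 0.64, and Krt7 by -0.02. Krt8 became -0.50 under normexp and Krt18 became -0.14 with quantile normalization, so the sign of Krt8 depends on the background correction and that of Krt18 on the scaling. Krt19 differed by -0.74. Krt20 was 4.46-fold lower in DKO (-2.16), the one simple keratin beyond 2-fold.

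The basal keratins had a median difference of -0.79. Krt5 differed by -0.01 and its type I partner Krt14 by -0.79. The other Krt5 probe read 1.12 in DKO and 1.39 in TNF KO epithelial cells, a difference of -0.27. Under normexp Krt5 stood at -0.48 and Krt14 at -1.11. Krt15, a type I keratin of basal cells, stood at -2.08 in DKO and -0.60 in TNF KO epithelial cells, against -7.47 to -6.40 elsewhere, and was 2.79-fold lower in DKO. Under normexp its difference was -0.55 and no longer 2-fold.

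The suprabasal group had 9 members with a value, 5 measured and 4 bounds. All 5 measured were below 0, as the bounds were by their rule. The median difference of the 9 was -1.44, and 7 were at least 2-fold lower. Krt9, known from the skin of palms and soles, stood at -0.43 in DKO and 1.92 in TNF KO epithelial cells, 5.07-fold lower in DKO, against -4.45 in DKO and -4.81 in TNF KO CD45+EpCAM- cells and -4.81 in DKO and -5.53 in TNF KO thymocytes. Krt76, a keratin of the palate and oral lining, stood at -2.17 in DKO and 0.02 in TNF KO epithelial cells, 4.57-fold lower in DKO, and was not above background elsewhere (-6.48 to -6.08). Krt78 stood at -1.34 in DKO and 0.80 in TNF KO epithelial cells, 4.42-fold lower in DKO, against -7.16 to -6.64 elsewhere. Under normexp Krt76 was no longer 2-fold lower (-0.83), while Krt78 was (-1.38). The other Krt78 probe read -2.10 in DKO and 0.06 in TNF KO, so both Krt78 probes showed the difference.

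Krt10, the type I partner in the differentiating epidermis, stood at -1.15 in DKO and 0.29 in TNF KO epithelial cells, 2.72-fold lower in DKO. In CD45+EpCAM- cells it stood at -0.93 in DKO and -0.75 in TNF KO, and in thymocytes at -1.40 in DKO and -1.76 in TNF KO. Its other probe, above background in the epithelial cells alone, read -1.64 in DKO and -0.21 in TNF KO, a difference of -1.43 beside -1.44. The probes thus gave nearly the same Krt10 difference, although under normexp it was -0.89 and no longer 2-fold. Krt1, its type II partner, stood at -4.55 in DKO and -1.67 in TNF KO epithelial cells, at least 2.21-fold lower in DKO, and was at background on the other 4 arrays (-7.29 to -6.38). Krt13, the type I keratin of the oral and oesophageal lining, stood at 1.70 in DKO and 2.52 in TNF KO epithelial cells, against -4.61 to -4.31 elsewhere, a difference of -0.82, while its partner Krt4 allowed no fold.

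Krt77 and Krt12 were seen above background in TNF KO epithelial cells alone. Krt77, found in sweat gland ducts and suprabasal skin, stood at -4.19 in DKO and -1.30 in TNF KO epithelial cells, at least 2.86-fold lower (-0.18 under normexp), against -6.24 to -5.78 elsewhere. Krt12, the cornea's keratin, stood at -2.65 in DKO and -1.63 in TNF KO, at least 2.03-fold lower, against -7.59 to -6.52 elsewhere, but its other probe was at background on all arrays. Just inside the 2-fold limit by its bound stood Krt12, and just outside it Krt81 (-0.90) and Krt24 (a bound of -0.89).

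The activation keratins, induced in wounded and inflamed skin, had a median of -1.41. Krt16 stood at 0.43 in DKO and 2.72 in TNF KO epithelial cells, 4.90-fold lower in DKO, at -1.98 in DKO and -1.90 in TNF KO CD45+EpCAM- cells, and at -1.41 in DKO and -2.05 in TNF KO thymocytes. Krt17 differed by -0.56, within 2-fold, although under normexp it was -1.03. Krt6b, a partner of Krt16, stood at -2.75 in DKO and -1.34 in TNF KO epithelial cells, at least 2.66-fold lower in DKO, and its other probe, at -2.89 in DKO and -0.62 in TNF KO, ran the same way, although under normexp the difference was -0.08. Krt6b and Krt6a are near-identical, as are Krt33a and Krt33b and the Krt81, Krt86 and Krt87 family, so signal may be shared between these genes and each single value is uncertain.

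Among the hair keratins 13 of 23 had a value, 4 measured and 9 bounds, with a median of -0.83, and 5 were at least 2-fold lower. The 4 measured were all below 0, as the bounds were by their rule. Krt71, a type II keratin of the inner root sheath, stood at 0.33 in DKO and 1.89 in TNF KO epithelial cells, 2.94-fold lower in DKO, against -7.66 to -6.09 elsewhere. Krt84, a hair shaft keratin also found in the tongue, stood at -2.58 in DKO and 0.09 in TNF KO epithelial cells, at least 6.38-fold lower, against -7.63 to -6.52 elsewhere. Krt86 stood at -2.73 in DKO and 0.29 in TNF KO epithelial cells, at least 8.09-fold lower. These were the largest of the 16 bounds, but under normexp they shrank to -1.03 for Krt84 and -1.25 for Krt86.

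Krt86 was above background in the other populations too, at -3.76 in DKO and -3.61 in TNF KO CD45+EpCAM- cells and at -3.18 in DKO and -2.64 in TNF KO thymocytes. Krt33b stood at -4.50 in DKO and -1.35 in TNF KO epithelial cells, at least 2.76-fold lower, against -7.43 to -6.12 elsewhere. Krt87 stood at -4.46 in DKO and -1.68 in TNF KO epithelial cells, at least 2.19-fold lower; Krt33b and Krt87 were below 2-fold under normexp, at -0.11 and -0.07. The remaining hair keratins with a value lay between -0.90 (Krt81) and -0.25 (Krt33a, a bound). Krt72 and Krt73 of the root sheath differed by -0.47 and -0.54, and Krt72 turned to 0.47 under normexp.

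Among the unclassified keratins Krt79, which marks the hair follicle canal in the mouse, stood at 0.00 in DKO and 1.67 in TNF KO epithelial cells, 3.17-fold lower in DKO, at -1.86 in DKO and -1.84 in TNF KO CD45+EpCAM- cells, and at -1.07 in DKO and -1.40 in TNF KO thymocytes. Krt23, a type I keratin, stood at 0.61 in DKO and 2.00 in TNF KO epithelial cells, 2.62-fold lower in DKO, and was not above background in CD45+EpCAM- cells (-7.86 in DKO and -7.73 in TNF KO). Krt42, a type I keratin of the mouse nail, stood at -0.07 in DKO and 0.63 in TNF KO epithelial cells (-0.70), against -6.61 to -5.47 elsewhere. Krt222, a keratin-like gene, ran the other way, with 3.04-fold more signal in DKO (1.60), and its differences in CD45+EpCAM- cells and thymocytes were 0.50 and 0.85. Averaged over both of its probes the epithelial difference was 0.97.

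**Figure D3:**
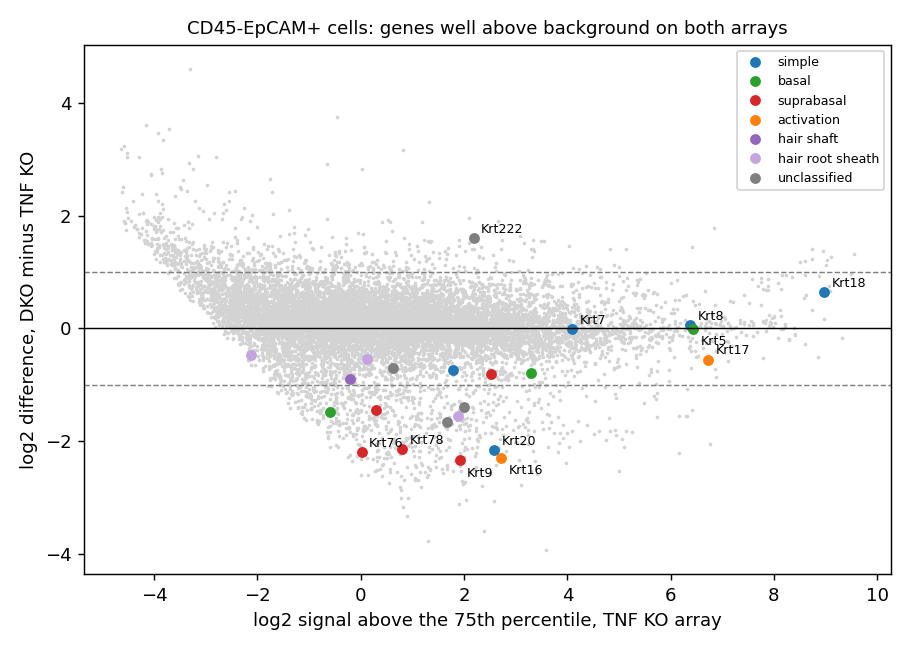
Difference between DKO and TNF KO CD45-EpCAM+ cells (y axis, log2, DKO minus TNF KO) against signal on the TNF KO array (x axis, log2 above the 75th percentile) for the 11847 genes above background on both arrays (grey), with the 23 measured keratins in colour. Krt9, Krt16, Krt20, Krt76 and Krt78 lie below -2, while the 6 keratins above 3 on the x axis lie within 2-fold. Under normexp, not drawn, Krt14 and Krt17 of these 6 were at least 2-fold lower.

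The partners of a filament pair could be set side by side. Type II Krt8 and Krt5 differed by 0.06 and -0.01, whereas their type I partners Krt18 and Krt14 differed by 0.64 and -0.79. For Krt1 and Krt10 the values were a bound of -1.14 and a difference of -1.44, and for Krt6b and Krt16 a bound of -1.41 and a difference of -2.29. By gene cluster, chromosome 11 held 8 keratins at least 2-fold lower of 19 with a value (median -0.82), and chromosome 15 held 10 of 20 (median -1.02). Lower signal was found on both chromosomes.

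Genotype differences were counted in the same way outside the epithelial cells, where fewer keratins had a value. In CD4+CD25hi thymocytes 34 of 53 were at background on both arrays; of 18 with a value, Krt6b and Krt23 were at least 2-fold lower (1.28% of genes) and Krt87 at least 2-fold higher (1.68%), all 3 bounds. Krt23 stood at -6.83 in DKO and -2.52 in TNF KO thymocytes, and Krt6b at -4.41 in DKO and -3.05 in TNF KO. All 13 measured on both thymocyte arrays were within 2-fold, and the median of the 18 was 0.34, against -0.02 over all genes. In CD45+EpCAM- cells 0 of 22 were 2-fold apart, where 2.08% of genes were lower and 1.82% higher, and the median was 0.05, against -0.01 over all genes. Whether the epithelial difference differed from that in another population was not tested for any single keratin.

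The same limma fit gave the genotype effect that all 3 populations share. Of the 31 keratins fitted, 0 passed an adjusted p of 0.05, as did 0% of all genes. At an unadjusted p of 0.05 there were 2, Krt81 (-0.62 ± 0.17, log2, SE) and Krt222 (0.99 ± 0.26), both with an adjusted p of 0.717, beside 5.96% of genes.

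Genes that act with keratins differed in both directions. Of 21 desmosome and linker genes, which anchor keratin filaments to the cell surface, 19 had a value in the epithelial cells, with a median of 0.02; 4 were at least 2-fold lower in DKO and 2 higher, where 9.3% of all genes were lower and 5.1% higher. Dsg1a, a desmosomal cadherin, stood at -1.20 in DKO and 0.68 in TNF KO (-1.88), Col17a1, a hemidesmosomal collagen, differed by -1.51, Pkp2, a desmosomal plaque protein, by -1.16 and Dsc3, another desmosomal cadherin, by 1.05. Dsp, the desmoplakin that binds keratin, differed by 0.41. Regulators known to act on keratin genes or epithelial differentiation numbered 17, of which 16 had a value, with a median of -0.39. Of these, 4 were at least 2-fold lower and 1, Ovol2, higher, beside the same 9.3% and 5.1% of all genes. The 4 were Elf3 (-1.62), Tfap2c (-1.59), Grhl3 (-1.49) and Ehf (-1.16), while Foxn1, the master regulator of thymic epithelium, differed by 0.16.

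Of the other intermediate filament genes 15 had a value, with a median of -0.56, and 5 were at least 2-fold lower and 0 higher, against 9.3% and 5.1% of all genes. Vim, the filament protein of mesenchymal cells, stood at 2.32 in DKO and 3.37 in TNF KO (-1.05). The neuronal filament genes Prph and Nefh differed by -1.74 and -1.57, and Sync, a filament-binding muscle protein, by -1.12. Under normexp only 1 of the desmosome genes, 2 of the regulators and 1 of the other filament genes were 2-fold lower, where 4.65% of all genes were.

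**Figure D4:**
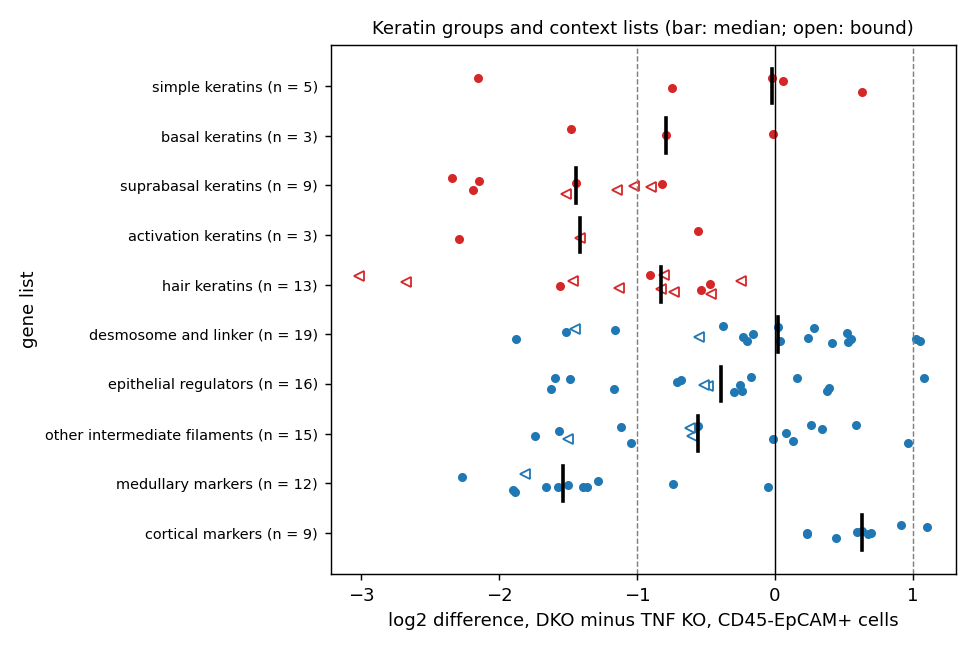
Differences between DKO and TNF KO CD45-EpCAM+ cells (x axis, log2, DKO minus TNF KO) for the keratin groups (red) and context lists (blue); points are genes, open triangles bounds, black bars medians and dashed lines 2-fold. Of the lists drawn, suprabasal keratins (-1.44) and medullary markers (-1.54) have the lowest medians and cortical markers (0.63) the highest.

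Markers of the cells in the sort also differed between these arrays. The counts of markers stand beside 9.3% of all genes lower and 5.1% higher by 2-fold or more. Of 12 medullary epithelial markers with a value 10 were lower in DKO by 2-fold or more; their median was -1.54, with a summed linear level of 52.4 in DKO and 94.8 in TNF KO (in units of the 75th percentile). The differences ran from -2.27 for Tnfrsf11b, the decoy receptor osteoprotegerin, to -0.05 for Pigr. Pigr read 4.99 in DKO and 5.04 in TNF KO epithelial cells, the largest of the list, and 4.33 to 5.05 on the other arrays. The list summed to 44.7 in DKO and 47.9 in TNF KO thymocytes. Much of these sums was therefore not particular to epithelial cells, and the sums show the medullary difference less than the median does. Aire, the medullary factor behind much self-antigen expression, differed by -1.90, and Fezf2, another factor with that role, by -1.88. Of 9 cortical markers 0 were lower and 1, Ly75, higher, with a median of 0.63 and a sum of 1771 in DKO and 1075 in TNF KO. Lower medullary marker signal and a cortical median above 0 thus stood beside the keratin differences.

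Of 9 epithelial markers, 3 (the claudins Cldn3, Cldn4 and Cldn7) were lower in DKO by 2-fold or more, and the list had a median of -0.59 and a sum of 68.6 in DKO and 76.2 in TNF KO. Cldn3 and Cldn4 were also on the medullary list, so their values were counted in both. Markers of T cells had a median of 0.86, with 2 of 10 higher and a sum of 128 in DKO and 69.1 in TNF KO, Foxp3 at background on both. Those of the CD45+ stroma had a median of 0.76, with 1 of 9 lower (Lyz2, -1.43) and 1 higher (Ptprc, 1.18). Their sum was 400 in DKO and 436 in TNF KO, most of it from Cd74 (8.33 in DKO and 8.61 in TNF KO), so that the sum and the median run opposite ways. Markers of mesenchyme and endothelium had a median of 0.24 with 1 of 7 higher and a sum of 14.0 in DKO and 7.93 in TNF KO, Pdgfra at background on both. The part of these cells in the keratin differences was not tested. Over all genes 9.3% were lower and 5.1% higher, so a count of 1 in a list this short is near that share.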

How the data were processed

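Spot intensity values of 6 one-colour arrays were extracted by the authors with Feature Extraction 10.5.1.1, per the file headers (version 9.5 per the submitters' processing notes), which also corrected them for background. The authors' deposited log2 table matched the values computed here to within an offset of 0.00536 per array, with column medians from -3.71 to -2.72, and served as an alternative.

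Outlier and control spots were left out; 39419 of 39429 probes were used. Processed signals were averaged over the spots of a probe, put on the log2 scale and scaled to the 75th percentile of their array. Probes were named through their accession in a RefSeq gene table of GRCm38.p6 (the array's design names mm9): 27472 had 1 symbol, 35 several and 11912 none. Populations and the common genotype effect were fitted with limma 3.58.1 in R 4.3.3, additive in population and genotype (2 residual and 1.64 prior degrees of freedom), with Benjamini-Hochberg adjustment; the fit was tested on simulated data. Each group has 1 array, and the number of arrays limits the precision. Nothing gives a separate pool within a group, so p-values do not measure the spread between pools.

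Alternatives were normexp (offset 50, on the median signal, since the mean signal column was not used here), quantile normalization, centring on the median of detected probes, the mean over a gene's probes, other filters on dim genes, leaving out arrays and the deposited table. Every keratin above background on at least 1 array could be named. Values are printed for those 2-fold apart or with a mean above 0 in CD45-EpCAM+ cells, and, for the desmosome, regulator and other filament lists, for the 4 genes with the largest differences among those above background on both arrays; marker lists are given by counts, medians, sums and some members. The members, groups and lists were chosen with earlier results of these data known.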

Additional observations from a re-analysis of the deposited data

Results flagged for a closer look

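Krt87, a hair shaft keratin, was set apart because its genotype difference ran in opposite directions in 2 populations. In CD4+CD25hi thymocytes it stood at -3.58 in DKO and -6.16 in TNF KO, where it was not above background, a difference of at least 1.26 (log2, DKO minus TNF KO). In CD45-EpCAM+ cells it stood at -4.46 in DKO, not above background, and -1.68 in TNF KO, a difference of at least 1.13 in size in the other direction (-1.13). Both are bounds from 1 array per genotype, and the difference between the populations was not tested. Krt87 is one of a family of near-identical hair keratins, and signal shared between them was not tested.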

How the results depend on the processing

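Over 58 results, no count or epithelial difference past its limit turned direction under the alternatives run, while the Krt17 difference between the other 2 populations did under normexp. With genes required on at least 3 arrays, 15 keratins were called in CD45-EpCAM+ cells against each other population; with no filter on dim genes, 35 were called against CD4+CD25hi thymocytes and 40 against CD45+EpCAM- cells; with 1 array left out, 18 to 25 and 19 to 26. These counts include keratins called lower in the epithelial cells than in thymocytes: Krt222 under normexp and without the DKO epithelial array, Krt2 under quantile normalization, and Krt2 and Krt80 without the TNF KO epithelial array, these also against CD45+EpCAM- cells. The Krt17 call between CD45+EpCAM- cells and thymocytes became 0 with no filter and with any of the 4 arrays left out; under normexp Krt17 stood at -0.46 and Krt6b was called in its place. Among genes above background on both arrays the 18 keratins lower in DKO epithelial cells became 10 and the suprabasal median -2.14, and the 3 keratins apart in thymocytes became 0, as they did under normexp. The 18 became 12 under normexp, where 4.65% of all genes were lower: 9 were shared with the 18, and 3 were others, Krt13 (-1.12), Krt14 (-1.11) and Krt17 (-1.03). Under quantile normalization 23 were lower, all 18 among them, where 11.1% of all genes were. Under normexp the median was -0.50 for simple, -1.005 for suprabasal, -1.03 for activation and -0.43 for hair keratins. The activation median was -1.81 under quantile normalization and -1.84 with the mean over probes, which also left 0 keratins higher in DKO. Under normexp the genes lower in DKO were 1 desmosome gene, 2 regulators and 1 other filament gene, and 0 desmosome genes and 0 regulators were higher. Centring on detected probes left 1 desmosome gene higher, and quantile normalization gave 1 other filament gene higher. The cause was not tested. No alternative moved the median of all genes in the epithelial cells by over 0.1. The dim DKO epithelial array limits what can be said of weak keratins, which appear as bounds or without a fold. Slide as a block was not run, since each population lies on its own slide. No paired analysis was possible because each group has 1 array and the groups share a single replicate number; the population term of the fit already sets the genotypes beside each other within a population and slide.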
